A study of Mus musculus with 24 samples.

Results

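The H/ACA box small nucleolar RNAs (snoRNAs) of mouse liver were read in 24 libraries. They are the rows of the deposited gene table whose symbol is Snora followed by a digit: 36 of 24015 rows, of which 32 had at least 10 counts over the 24 libraries and are described here. Snora36b lay just inside that limit with 13 counts, all in 3 libraries of a single preservation, and the next members, Snora43 and Snora47, had 277 counts each. Snora19, Snora24, Snora26 and Snora35 lay outside it with 0 of 621891069 counts, which allows up to 0.004824 CPM by counting error alone (CPM, the count scaled to a library total of 1000000). The rule reads the symbol and the total count, and no difference between groups.

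The livers came from female B6C3F1 mice, a hybrid strain bought at 5 to 6 weeks of age. Furan, a heterocyclic compound formed in heated food and toxic to rodent liver, was gavaged daily in corn oil at 8 mg/kg body weight for 21 days in 4 animals (41, 42, 43 and 44), and corn oil alone in 4 controls (2, 3, 4 and 6). Tissue was taken 4 h after the last dose. Each liver was cut into 3 pieces: fresh frozen, formalin for 18 h and then paraffin (FFPE 18 h), and formalin for 3 weeks and then paraffin (FFPE 3 weeks), which gives 6 groups of 4 libraries. All libraries were made from total RNA depleted of ribosomal RNA with beads. RNA integrity numbers were above 8.9 in frozen tissue and 1.3 to 2.4 in fixed tissue. Frozen and fixed pieces were extracted with different kits, and 1 section of 10 µm was used for FFPE 18 h and 2 for FFPE 3 weeks, so preservation, kit, input and piece of liver cannot be told apart.

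H/ACA snoRNAs guide the conversion of chosen uridines in ribosomal RNA to pseudouridine. Each folds into a pair of hairpins joined by a hinge, the H box, and ends in a short tail with the trinucleotide ACA. A core of dyskerin (Dkc1), Nop10, Nhp2 and Gar1 binds the RNA and carries out the reaction. Most vertebrate members have no promoter of their own. They are trimmed out of introns of host genes, many of which encode ribosomal proteins or translation factors, and the finished particle protects the RNA from exonucleases.

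In the GENCODE M21 annotation of GRCm38, 25 of the 32 members lay in an intron of a host gene in the table, 3 over a host exon (Snora44 and Snora61 in Snhg12, Snora7a in Rpl32) and 4 had no host in the table (Snora17, Snora30, Snora43 and Snora74a). The hosts were 25 genes, 11 of them ribosomal protein genes. Transcripts were 127 to 196 bases long. The sequences below are from the same annotation. They show 3 members that differed most or were most abundant in fixed liver (Snora3, Snora69 and Snora23). The other 3 (Snora20, Snora52 and Snora78) had lower fold changes from frozen liver. Capitals mark the ACA nearest the 3′ end and the 3 adenines of the hinge match AnAnnA nearest the middle, where one was found.
Snora3: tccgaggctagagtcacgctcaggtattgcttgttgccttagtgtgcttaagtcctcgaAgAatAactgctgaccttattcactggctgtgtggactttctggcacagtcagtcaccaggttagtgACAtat
Snora69: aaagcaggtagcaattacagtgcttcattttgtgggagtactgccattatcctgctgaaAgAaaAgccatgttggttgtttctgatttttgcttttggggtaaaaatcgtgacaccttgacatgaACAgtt
Snora23: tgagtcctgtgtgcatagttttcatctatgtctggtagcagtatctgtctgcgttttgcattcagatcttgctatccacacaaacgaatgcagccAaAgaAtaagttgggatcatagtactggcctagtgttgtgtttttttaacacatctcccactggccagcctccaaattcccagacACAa
Snora20: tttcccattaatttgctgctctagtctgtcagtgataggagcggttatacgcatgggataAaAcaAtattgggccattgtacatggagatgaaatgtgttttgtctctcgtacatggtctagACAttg
Snora52: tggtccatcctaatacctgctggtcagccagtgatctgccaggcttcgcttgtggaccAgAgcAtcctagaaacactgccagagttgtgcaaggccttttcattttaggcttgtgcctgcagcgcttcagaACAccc
Snora78: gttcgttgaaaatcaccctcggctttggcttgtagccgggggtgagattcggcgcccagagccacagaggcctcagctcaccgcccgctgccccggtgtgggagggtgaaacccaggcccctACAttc
Snora3 lies in an intron of Rpl27a on chromosome 7, Snora69 in one of Rpl39 on chromosome X, Snora23 in one of Ipo7 on chromosome 7, Snora20 in one of Tcp1 on chromosome 17, Snora52 in one of Rplp2 on chromosome 7 and Snora78 in one of Snhg9 on chromosome 17. The letters ACA, on the transcript strand, stood within the last 10 bases of 30 of 32 members (93.75%), in 10.1% of 99 C/D box transcripts and in 34.4% of 2291 transcripts of 127 to 196 bases. They were absent from that window in Snora44 and Snora81. The letters ANANNA occurred in the middle one of 3 equal parts of 29 members (90.6%), against 44.4% of the C/D box transcripts and 66.1% of transcripts of that length. No match says only that these letters are not in the window, as for the hinge of Snora78 above. GC content of the transcripts was 39.7% for Snora69 and 64.1% for Snora78.

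Library totals were 37978435 to 49326373 counts in frozen tissue, 22889146 to 28054631 counts in FFPE 18 h and 5560002 to 11019297 counts in FFPE 3 weeks. The 6 hepatocyte markers were abundant in every group, but their summed level fell without overlap from 126574 to 142689 CPM in frozen tissue to 96288.5 to 111398 CPM in FFPE 18 h and 60177 to 76033 CPM in FFPE 3 weeks. Rn45s, the ribosomal RNA precursor, had a median of 1022 CPM (752 to 2507) in frozen tissue, 11841 CPM (8673 to 14922) in FFPE 18 h and 37990 CPM (27688 to 51620) in FFPE 3 weeks, so residual ribosomal RNA moved with preservation. The part of either in the results was not tested. One frozen library, that of control animal 3, stood apart: it held 31.4 CPM of Snora78 against 3.78 to 7.88 in the other 3 frozen controls, 4.48 CPM of Snora74a against 29.1 to 34.0, and no count of Snora81 against 0.991 to 1.07. It also had the highest C/D box sum (192 CPM) and the highest Rn45s level of the frozen libraries. Changed calls and some values in frozen tissue are therefore given with and without this library. Summed levels, medians over members, counts at an unadjusted p and interactions are given only with it.

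Per kilobase of RefSeq gene length, the order of the members was not the same in the 3 preservations. In frozen liver the highest medians over 8 libraries were those of Snora74a with 127 CPM per kilobase (22.6 to 171), Snora70 with 92.4 (82.7 to 214) and Snora7a with 76.0 (36.5 to 103). These 3 ranges overlapped. In FFPE 18 h Snora23 led with 531 CPM per kilobase (426 to 738), above every value of the next member, Snora3, with 290 (211 to 352). In FFPE 3 weeks Snora70 had 1481 CPM per kilobase (982 to 1760), Snora23 1248 (970 to 1607) and Snora3 1157 (860 to 1344), again with overlapping ranges. Of the 31 pairs of neighbours in the order, 30 overlapped in frozen tissue, 29 in FFPE 18 h and 30 in FFPE 3 weeks. The rank correlation of the 32 medians was 0.78 between frozen and FFPE 18 h, 0.65 between frozen and FFPE 3 weeks and 0.95 between both fixed pieces, as a description over members that share libraries and hosts. RefSeq lengths were shorter than the GENCODE transcript for 27 members, down to 61 bases for Snora20 and 62 for Snora61, which raises their per-kilobase values, and the lengths of the gene models used for counting are not given in the sources used here.

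**Figure D1:**
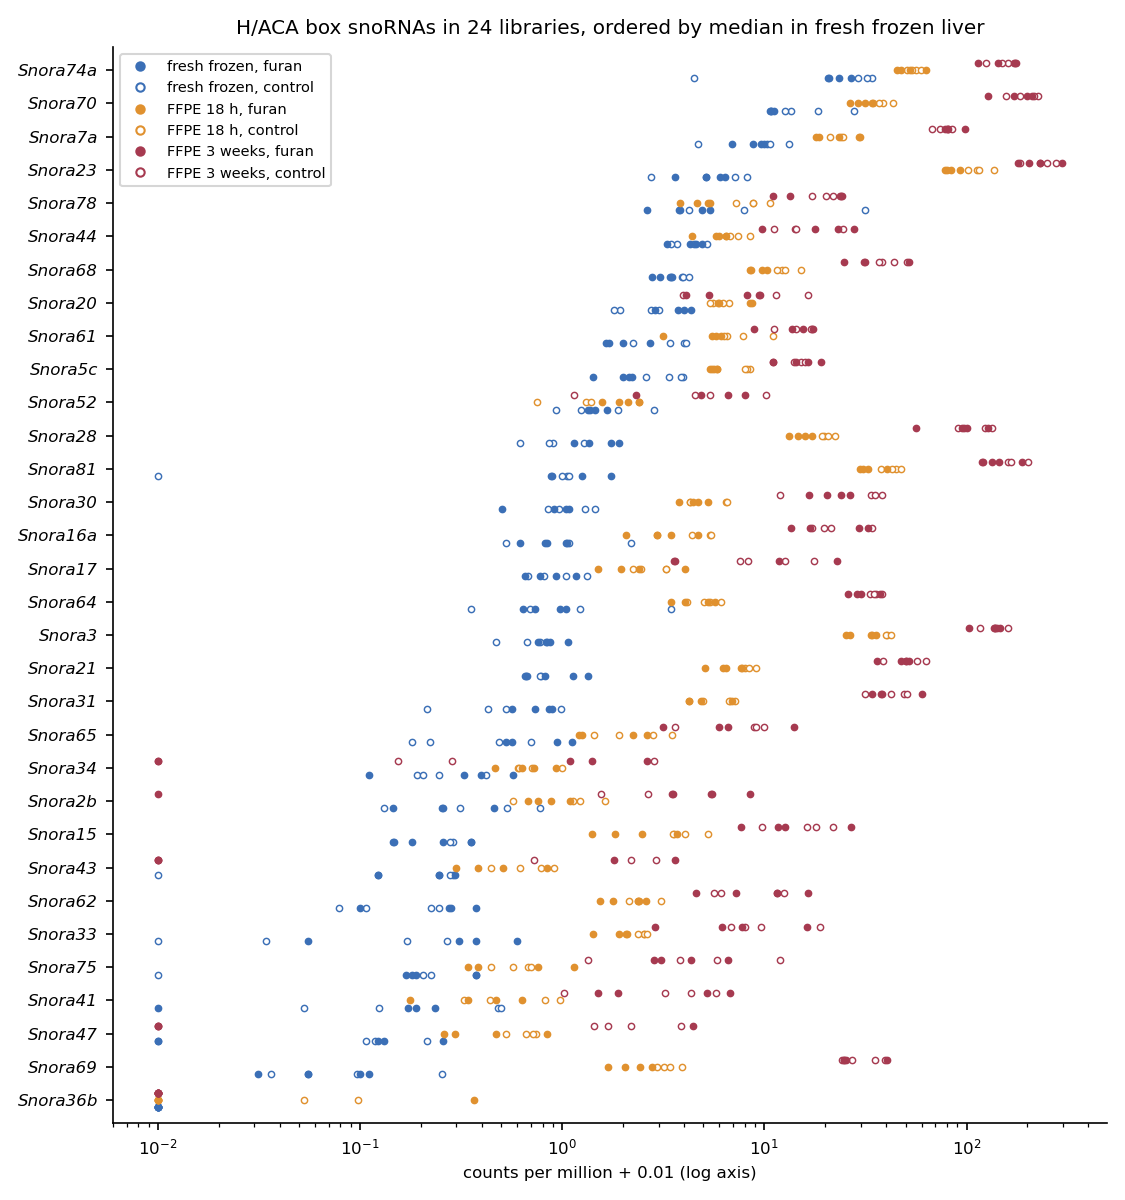
CPM + 0.01 (log axis) of the 32 H/ACA box snoRNAs in each of the 24 libraries, with blue for fresh frozen, orange for FFPE 18 h and dark red for FFPE 3 weeks, open for control and filled for furan. Snora3 and Snora69 show wide gaps between the colours. The fresh frozen and FFPE 3 weeks points overlap for Snora2b, Snora20, Snora34, Snora43, Snora47, Snora52 and Snora78.

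Formalin-fixed liver held a larger share of H/ACA snoRNA reads than frozen liver from the same animals, and the share was larger again after 3 weeks in formalin. The summed level of the 32 members had a median of 89.3 CPM (73.0 to 107, n = 8) in frozen tissue, 394 CPM (308 to 487) in FFPE 18 h and 1423 CPM (1096 to 1705) in FFPE 3 weeks. These ranges did not overlap. The hepatocyte marker sum moved the other way, also without overlap. CPM is a share of counted reads, so a larger amount of snoRNA and a smaller amount of other countable RNA cannot be told apart. At least 1 count was found for 27 to 31 members in each frozen library, 31 to 32 in FFPE 18 h and 28 to 31 in FFPE 3 weeks. With every library thinned to 5560002 counts, 20 to 28 members were detected in frozen tissue, 29 to 30 in FFPE 18 h and 28 to 31 in FFPE 3 weeks.

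**Figure D2:**
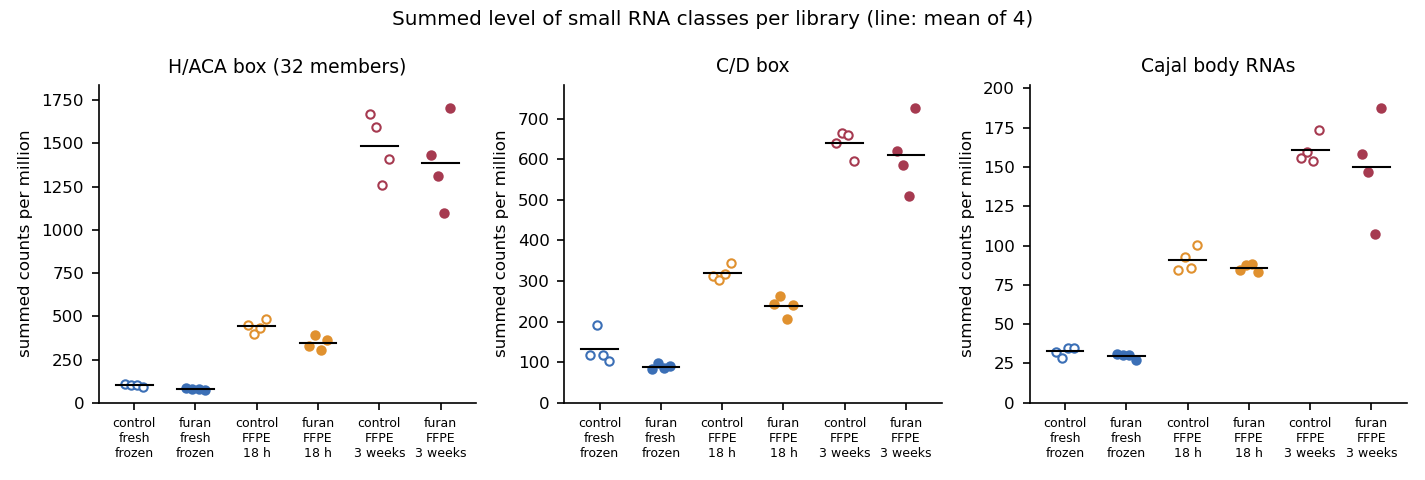
Summed CPM per library of the 32 H/ACA box members, the C/D box snoRNAs and the Cajal body RNAs in the 6 groups, open circles for control, filled circles for furan, and a line for the mean of 4. All 3 classes step upward from frozen to FFPE 18 h to FFPE 3 weeks, and the H/ACA medians are 89.3, 394 and 1423 CPM.

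Between FFPE 18 h and frozen tissue, 27 of the 31 members tested were higher and 0 lower in edgeR's quasi-likelihood test (8 against 8 libraries, Benjamini-Hochberg adjusted p below 0.05 over all 14843 genes tested). Of all genes, 53.9% were called in this comparison and 26.6% were called higher. The members' median log2 fold change was 1.30, against 0.01 for all genes, and 21 members had fixed libraries all above the frozen ones, as had 19.0% of genes. Snora41, Snora47, Snora69 and Snora75 had too few counts in frozen tissue to be tested there alone and entered through the fixed libraries. Among the 27 members that passed on the frozen libraries, 24 were called higher. The count of 27 called members was 17 when all libraries were thinned to equal totals, with 25 members tested. Leaving out 1 animal at a time left 24 to 26 called, and the calls lost in at least 1 of these fits were those of Snora34, Snora43, Snora74a and Snora75. With the animal as a block 27 were called, with Snora34 lost (adjusted p = 0.0630) and Snora44 gained (0.0310).

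Snora3 had the highest fold change of those members, with 0.462, 0.791 and 1.06 CPM as the lowest, median and highest of 8 frozen libraries and 25.3, 34.8 and 42.2 CPM in FFPE 18 h. Its log2 fold change was 5.15 ± 0.13 (SE, adjusted p = 2e-16), 35.4-fold. Snora81, in an intron of the translation initiation helicase gene Eif4a2 on chromosome 16, followed with 0.0, 1.02 and 1.74 CPM in frozen and 29.8, 39.1 and 47.4 CPM in FFPE 18 h (log2 fold change 4.96 ± 0.30). The lowest of its frozen values was that of control animal 3, and the groups did not overlap with or without it. Snora69 rose from 0.0214, 0.0659 and 0.243 CPM to 1.67, 2.85 and 3.91 CPM (4.69 ± 0.33), on 1 to 10 counts in each frozen library. Snora23, whose human counterpart modifies the large-subunit ribosomal RNA, was abundant in both pieces, with 2.74, 5.58 and 8.20 CPM in frozen and 78.3, 97.7 and 136 CPM in FFPE 18 h (3.82 ± 0.18). Snora28, in an intron of the initiation factor gene Eif5 on chromosome 12, gave 0.606, 1.20 and 1.90 CPM against 13.2, 18.2 and 22.4 CPM (3.57 ± 0.14). For all 5 members every fixed library exceeded every frozen one.

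The 4 members not called were Snora41 (log2 fold change 0.99 ± 0.54, adjusted p = 0.130), Snora44 (0.26 ± 0.14, adjusted p = 0.106), Snora52 (-0.21 ± 0.24, adjusted p = 0.481) and Snora78 (-0.43 ± 0.37, adjusted p = 0.339). Snora52 had 0.925, 1.4 and 2.82 CPM in frozen and 0.743, 1.74 and 2.40 CPM in FFPE 18 h. Its ranges in frozen and FFPE 18 h tissue lay over each other. Without control animal 3 the log2 fold change of Snora78 turned to 0.08 ± 0.17 (edgeR adjusted p = 0.698).

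The members with the highest CPM medians in frozen liver were Snora74a, Snora70 and Snora7a. Snora74a had 4.48, 25.2 and 34.0 CPM as lowest, median and highest in frozen, 45.1, 53.4 and 62.7 CPM in FFPE 18 h and 114, 155 and 176 CPM in FFPE 3 weeks (log2 fold changes from frozen 0.83 ± 0.29 and 2.24 ± 0.30). Snora70 had 10.7, 11.9 and 27.6 CPM, then 26.6, 34.3 and 43.4 CPM, then 127, 191 and 227 CPM (0.95 ± 0.13 and 3.31 ± 0.15), and its frozen and FFPE 18 h libraries overlapped only through control animal 3. Snora7a, over an exon of Rpl32 on chromosome 6, had 4.71, 9.80 and 13.2 CPM, then 18.1, 23.6 and 29.6 CPM, then 67.3, 80.3 and 97.8 CPM (1.01 ± 0.17 and 2.69 ± 0.16). All were called higher at both steps from frozen, but the FFPE 18 h call of Snora74a was lost without control animal 6 or furan animal 42 or 44 (adjusted p = 0.0524 to 0.0691 in edgeR's test).

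After 3 weeks in formalin, 29 of the 31 members tested were higher than in frozen tissue and 0 lower in edgeR's test, where 48.8% of 14253 genes were called and 23.0% called higher. The median log2 fold change of the members was 3.37, against -0.02 for all genes, and it ranged from 1.04 (Snora78) to 8.05 (Snora69). Without control animal 3, Snora78 stood at 1.58 and Snora20 at 1.03. The fixed libraries were all above the frozen ones for 24 members, against 16.5% of genes. Of the 27 members that passed the count filter on frozen libraries alone, 25 were called higher. Snora34 (1.36 ± 0.90, adjusted p = 0.222) and Snora43 (2.43 ± 1.04, adjusted p = 0.0550) were not called. With the animal as a block 27 were called, and Snora47 (adjusted p = 0.411) and Snora52 (0.0539) lost their calls. Leaving out 1 animal left 28 or 29: Snora47 turned to -0.42 without furan animal 41 (adjusted p = 0.660), Snora52 lost its call without control animal 2 (0.0592) and Snora78 without furan animal 44 (0.0736), all in edgeR's test. This comparison and the preceding one share the frozen libraries.

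Snora69 reached 24.2, 26.2 and 40.6 CPM as lowest, median and highest of 8 FFPE 3 weeks libraries, a log2 fold change of 8.05 ± 0.32 from frozen tissue. It rests on 1 to 10 counts in each frozen library, and Snora69 entered the test only through the fixed libraries. Snora3 reached 103, 139 and 161 CPM (7.03 ± 0.15) and Snora81 119, 152 and 201 CPM (6.89 ± 0.36). Snora28 had 56.4, 99.1 and 133 CPM (6.02 ± 0.19). All 4 were far above every frozen library. Snora31, in an intron of Tpt1 on chromosome 14, rose from 0.205, 0.639 and 0.973 CPM in frozen to 31.6, 40.3 and 60.3 CPM (5.66 ± 0.24). At the other end stood Snora20, in an intron of the chaperonin gene Tcp1, with 1.8, 2.94 and 4.32 CPM in frozen, 5.37, 6.06 and 8.71 CPM in FFPE 18 h and 3.95, 8.76 and 16.4 CPM in FFPE 3 weeks. It was called higher in both fixed pieces (0.81 ± 0.15 and 1.06 ± 0.29) but its frozen and FFPE 3 weeks libraries overlapped. Snora78 had 2.63, 4.56 and 31.4 CPM in frozen and 11.0, 21.0 and 24.1 CPM in FFPE 3 weeks (1.04 ± 0.35, adjusted p = 0.0174), and the frozen library above the fixed ones was that of control animal 3.

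Directly between the fixed pieces, 27 of 31 members were higher after 3 weeks than after 18 h and 0 lower, where 32.4% of 14414 genes were called and 14.9% called higher by edgeR. The median was 1.87 on the log2 scale, against -0.05 for all genes. For 22 members the libraries did not overlap, as for 5.7% of genes. The highest values were Snora69 (3.36), Snora75 (2.86, in an intron of the nucleolin gene Ncl), Snora31 (2.82), Snora41 (2.75) and Snora21 (2.66 ± 0.13). Snora21, whose human counterpart modifies the large-subunit ribosomal RNA, had 0.646, 0.769 and 1.33 CPM in frozen, 5.06, 7.69 and 9.04 CPM in FFPE 18 h and 36.2, 50.2 and 63.2 CPM in FFPE 3 weeks, with no overlap at either step. Snora75 had 0.332, 0.615 and 1.14 CPM in FFPE 18 h and 1.33, 4.07 and 11.9 CPM in FFPE 3 weeks, and Snora41 0.167, 0.447 and 0.961 CPM and 1.01, 3.78 and 6.72 CPM. Snora20, Snora34, Snora43 and Snora47 were not called, and Snora2b lost its call with the animal as a block, which left 26 (edgeR adjusted p = 0.142), and without control animal 4 or furan animal 44 (0.0709 and 0.0838).

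Across the 31 members tested, Pearson's r of the log2 fold change with GC content was -0.52 for FFPE 18 h against frozen, -0.51 for FFPE 3 weeks against frozen and -0.28 between the fixed pieces. Over the 27 members that passed on frozen libraries alone it was -0.56, -0.48 and -0.10. The corresponding r over 31 members with RefSeq length was 0.15, 0.15 and 0.07. These are descriptions over members that share libraries.

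Most host genes were not higher where their snoRNAs were. In FFPE 18 h against frozen tissue, 26 members and their host were both tested, and all 26 members had a higher log2 fold change than the host, with a median of 1.60 for the members and -0.35 for the hosts. The same held for all 22 pairs whose member passed the count filter on frozen libraries alone (medians 1.60 and -0.30). The 23 hosts of the 26 pairs included 3 called higher and 11 called lower by edgeR. Of all genes, 53.9% were called in this comparison and 26.6% called higher. In FFPE 3 weeks against frozen, all 26 members were again above the host (medians 3.93 and -0.17), as were all 22 of the restricted pairs (3.73 and -0.17). There 4 of the 23 hosts were called higher and 6 lower, where 48.8% of genes were called and 23.0% called higher. Rpl27a, the host of Snora3, stood at -0.56 and -0.22, and Eif4a2, the host of Snora81, at -0.57 and -0.17. Ipo7, an importin gene, was lower in both (-0.38 and -0.64) while its intronic Snora23 was higher. The smallest gaps in FFPE 18 h were those of Snora44 (0.26) from Snhg12 (0.10) and Snora52 (-0.21) from Rplp2 (-0.44). The differences between member and host were not tested. How reads over a snoRNA and a host were assigned, and the strand setting, are not given in the sources used here. Snora44, Snora61 and Snora7a overlap host exons, and Snora23 and Snora78 have a gene on the opposite strand (1600010M07Rik and Rps2), so the values of these 5 are uncertain, and copies elsewhere in the genome could share reads with any member.

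**Figure D3:**
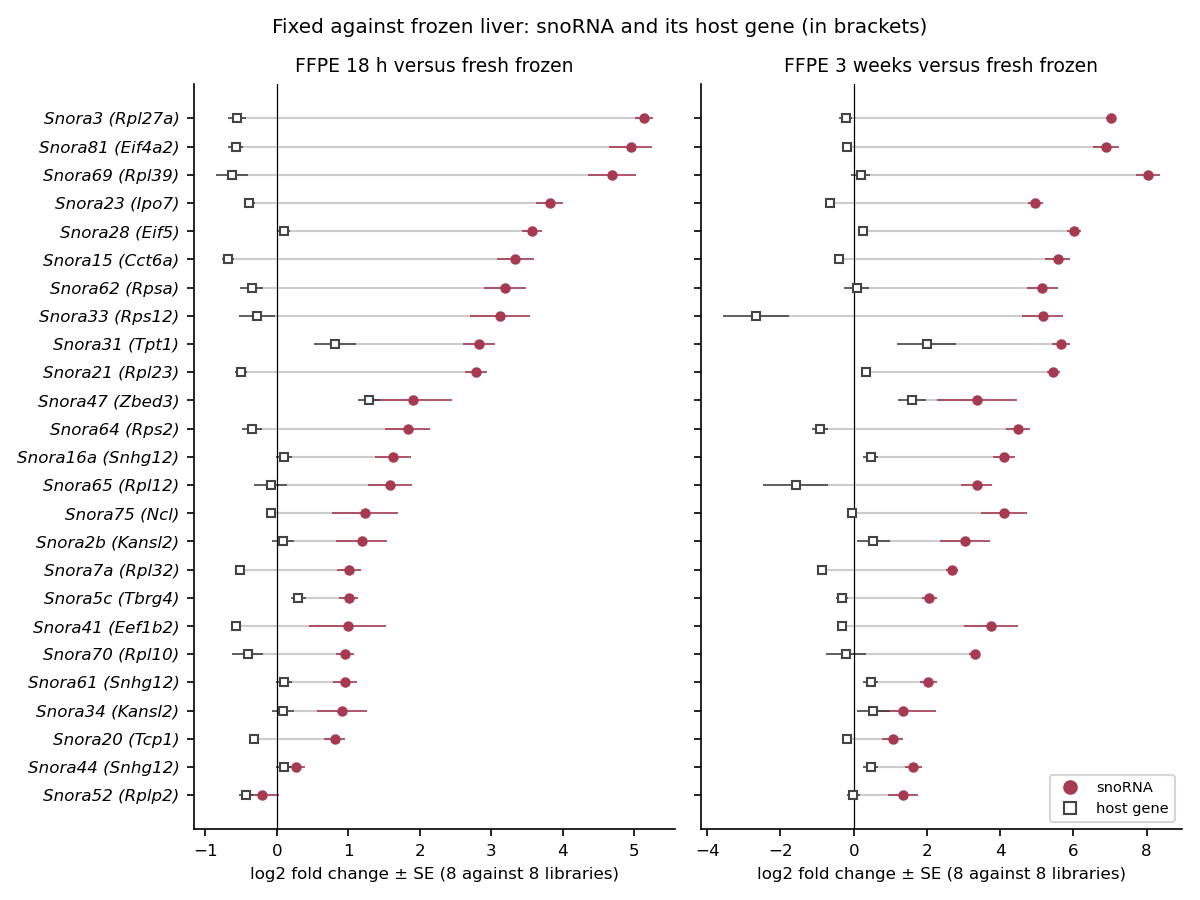
Log2 fold change ± SE of each snoRNA (filled circles) and of its host gene (open squares, name in brackets) in FFPE 18 h and FFPE 3 weeks against fresh frozen liver, 8 against 8 libraries, members ordered by the left panel. Of the 26 pairs, 25 are drawn, and all 25 circles lie to the right of their squares in both panels.

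Genes tied to the H/ACA particle differed in both directions. Of a list of 16 genes for core, assembly and associated proteins, which also holds the telomerase gene Tert and the RNA tail enzymes Parn and Papd5, 4 were called higher and 8 lower in FFPE 18 h against frozen, 2 higher and 8 lower in FFPE 3 weeks against frozen, and 3 higher and 4 lower between the fixed pieces. Of all genes, 53.9%, 48.8% and 32.4% were called in these comparisons, and 26.6%, 23.0% and 14.9% were called higher. Those called higher were Gar1, Naf1, Parn and Tert in FFPE 18 h and Naf1 and Papd5 in FFPE 3 weeks. Dkc1, the pseudouridine synthase, stood at -0.59 and -0.17 against frozen, the second not called (edgeR adjusted p = 0.390). Nop10 stood at -0.80 and -0.91, and Nhp2 at -0.55 and -1.66. Naf1, an assembly factor, stood at 0.63 and 1.38, and Gar1 at 0.76 and 0.996, the second not called.

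Among other small RNA classes some members were called higher. C/D box snoRNAs, which guide ribose methylation, were called higher in 17 of 36 tested (median log2 fold change 0.81) for FFPE 18 h against frozen, 23 of 39 (2.3) for FFPE 3 weeks against frozen and 17 of 41 (1.39) between the fixed pieces, with 0 lower. Cajal body RNAs, which guide modification of spliceosomal RNAs, were called higher in 4, 7 and 6 of 8 tested. Of all genes, 26.6%, 23.0% and 14.9% were called higher. The spliceosomal RNAs Rnu11 and Rnu12 rose by 4.33 ± 0.25 and 5.19 ± 0.41 in FFPE 18 h on the log2 scale, and Rpph1 by 0.91 ± 0.34. The other 3 structured RNAs were not called there, with Rmrp at -0.08 ± 0.25, Rnu73b at -0.27 ± 0.41 and Terc at -0.998 ± 0.492. These lists were set by symbol alone, so Rnu73b and Terc stand here and not among the members, whatever box they carry. Whether H/ACA members rose more than these classes was not tested.

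Furan-treated livers held a smaller share of H/ACA snoRNA reads than controls in FFPE 18 h. There 8 of the 31 members tested were called lower and 0 higher by edgeR (4 against 4 animals), with 15.5% of 14204 genes called, 7.72% lower and 7.82% higher. At an unadjusted p below 0.05 there were 13 members, against 28.9% of genes. Estimates were below 0 for 28 of 31 members, and their median was -0.40, against -0.0025 for all genes. In 8 members every furan library lay below every control, as in 8.34% of genes: Snora23, Snora28, Snora33, Snora61, Snora68, Snora69, Snora70 and Snora78. The summed level was 441 ± 37.2 CPM (SD, n = 4) in controls (396 to 487) and 347 ± 37.8 CPM (n = 4) in furan animals (308 to 392). Every furan sum lay below every control sum.

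Snora23 had 113, 102, 115 and 136 CPM in the FFPE 18 h controls and 78.3, 93.3, 79.9 and 83.7 CPM in the furan animals. The log2 fold change was -0.50 ± 0.08 (edgeR adjusted p = 0.000643). Snora78, a GC-rich member in the non-coding host gene Snhg9, had 8.76, 10.6, 8.73 and 7.25 CPM in controls and 5.35, 5.23, 3.81 and 4.65 CPM with furan (-0.92 ± 0.17, adjusted p = 0.00157). Both members were lower in all 4 furan animals than in any control. Snora28, whose human counterpart modifies the small-subunit ribosomal RNA, had 19.8, 19.3, 22.4 and 20.7 CPM against 14.6, 15.9, 13.2 and 17.1 CPM (-0.46 ± 0.11, adjusted p = 0.00615). Snora70, in an intron of the ribosomal protein gene Rpl10 on chromosome X, had 38.4, 37.1, 34.6 and 43.4 CPM against 31.4, 29.1, 26.6 and 34.1 CPM (-0.37 ± 0.09, adjusted p = 0.0131). The highest furan value of Snora70 came close to the lowest control. Snora68 had 15.1, 12.2, 11.5 and 12.6 CPM against 8.55, 10.3, 8.45 and 9.75 CPM (-0.50 ± 0.13, adjusted p = 0.0151).

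The other 3 called members overlapped between the groups. Snora81 had 44.7, 37.7, 43 and 47.4 CPM in controls and 30.6, 40.4, 29.8 and 32.5 CPM with furan (-0.40 ± 0.10, adjusted p = 0.0135), with furan animal 42 above control animal 3. Snora3 had 40.5, 34.0, 40.0 and 42.2 CPM against 26.4, 35.5, 25.3 and 33.6 CPM (-0.40 ± 0.11, adjusted p = 0.0175), again with animal 42 above control animal 3. Snora15, in an intron of the chaperonin gene Cct6a on chromosome 5, had 5.28, 3.55, 3.53 and 4.02 CPM against 1.39, 2.47, 1.82 and 3.69 CPM (-0.84 ± 0.28, adjusted p = 0.0476). Furan animal 44 lay within the control range of Snora15, and its call was lost in 7 of the 8 fits that left out 1 animal.

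None of these 8 calls was kept in a fit over all 24 libraries, which uses 1 estimate of the spread for frozen and fixed tissue. The log2 fold changes there were -0.38 to -0.93, with adjusted p between 0.154 and 0.859. Leaving out 1 animal at a time left 6 to 8 members called, with Snora68 lost without control animal 2 and Snora3 without furan animal 43. These counts include members outside the 8. Snora61 gained a call without control animal 2 or 3 or furan animal 42 (edgeR adjusted p = 0.0448 to 0.0465). Snora5c gained one without control animal 4 (0.0166). In the same libraries the 3 sinusoidal endothelial markers summed to 324 to 346 CPM in controls and 265 to 284 CPM with furan, and their part in the result was not tested. In bulk tissue, fewer cells of a type and less RNA per cell cannot be told apart.

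**Figure D4:**
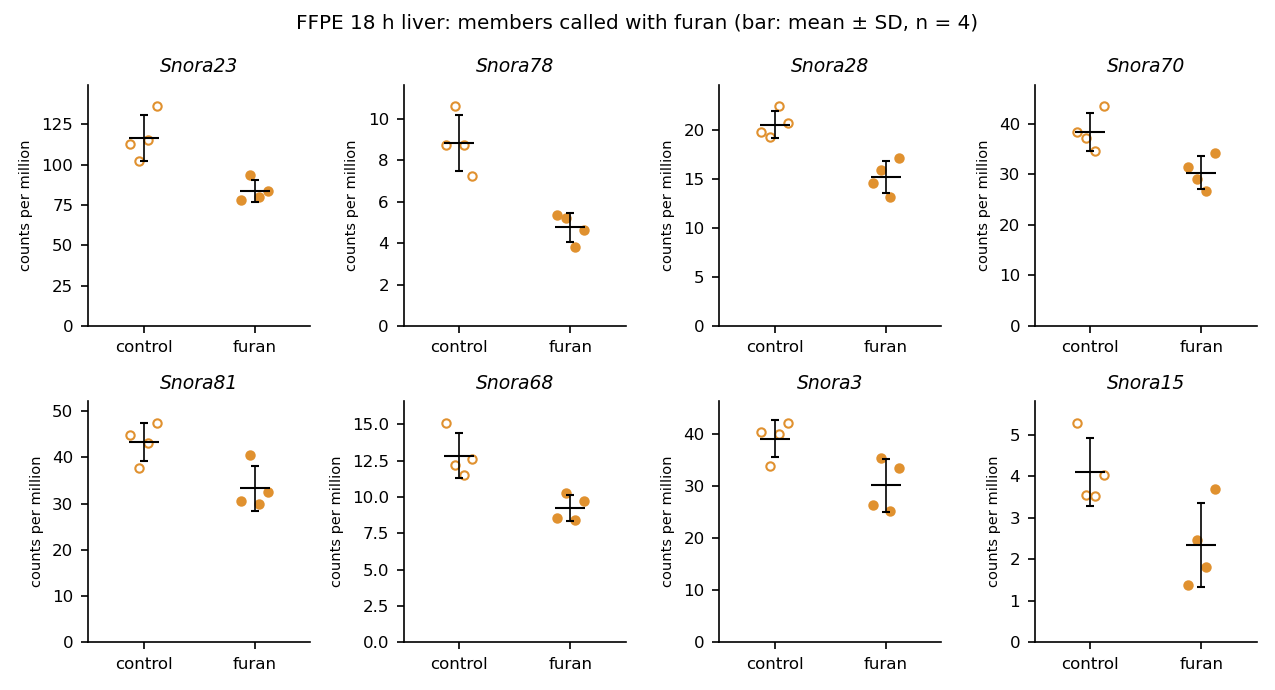
CPM (axes from 0) in each FFPE 18 h library of the 8 members called lower with furan, open for control and filled for furan, with the mean ± SD (n = 4). The groups do not overlap for Snora23, Snora78, Snora28, Snora70 and Snora68 and overlap for Snora81, Snora3 and Snora15.

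Several hosts of these members were higher with furan in FFPE 18 h. Of 24 hosts tested, 6 were called higher and 2 lower with furan, with a median log2 fold change of 0.17, where 7.82% of genes were called higher and 7.72% lower. Ipo7 stood at 0.31 (adjusted p = 0.0035) beside Snora23 at -0.50, Eif5 at 0.26 (0.00949) beside Snora28 at -0.46, Rpl10 at 0.73 (0.0380) beside Snora70 at -0.37, and Cct6a at 0.32 (0.00211) beside Snora15 at -0.84, adjusted p from edgeR in brackets. Eif4a2 was called lower (-0.27, adjusted p = 0.0411), as was its Snora81. Further called hosts had the sign of their members, which were not called. Tcp1 stood at 0.26 (edgeR adjusted p = 0.00385) beside Snora20 at 0.26, and Ncl at 0.29 (0.00182) beside Snora75 at 0.14. Snhg12 stood at -0.48 (0.0421) beside Snora16a at -0.49, Snora44 at -0.39 and Snora61 at -0.66. Only 3 of 26 members had a higher log2 fold change than the host. C/D box snoRNAs were called lower with furan in 3 of 30 tested (7.72% of all genes) and higher in 0. Their estimates were below 0 for 15 and above 0 for 15, with a median of -0.04. The summed C/D box level was 319 ± 18.3 CPM (SD, n = 4) in controls and 239 ± 23.5 CPM (n = 4) with furan, without overlap. Of the 16 particle protein genes, 0 were called with furan by edgeR in any preservation, and 3, 2 and 3 had an unadjusted p below 0.05 in frozen, FFPE 18 h and FFPE 3 weeks, against 18.4%, 28.9% and 12.4% of genes.

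In frozen tissue the summed level was also lower with furan, 80.3 ± 6.09 CPM (SD, n = 4, 73.0 to 87.9) against 100.2 ± 6.76 CPM (n = 4, 90.8 to 107) without overlap, but no single member passed. The 3 highest members made up 51.2% to 62.2% of the sum in each frozen library. The sum of control animal 3, 103 CPM, lay inside the range of the other controls. Of 27 members tested, 0 were called by edgeR, where 2.78% of 14122 genes were called and 1.2% called lower. Furan libraries lay all below controls for 3 members (Snora5c, Snora68 and Snora70), as for 4.79% of genes. At an unadjusted p below 0.05 there were 6 members, against 18.4% of genes, and 17 estimates were below 0 with a median of -0.16. DESeq2 called 3 members lower (Snora5c, Snora70 and Snora61), and without control animal 3 edgeR also called 3 (Snora5c, Snora70 and Snora74a). The shares of all genes above are those of the main edgeR fit, and those of these other fits are not given here. Snora74a moved from -0.15 (edgeR adjusted p = 0.887) to -0.50 (0.0178) without control animal 3. Snora5c, in an intron of Tbrg4 on chromosome 11, had the smallest p: 3.96, 3.37, 3.88 and 2.58 CPM in controls against 2.12, 2.21, 1.99 and 1.41 CPM (-0.87 ± 0.23, adjusted p = 0.0723), without overlap. Snora70 had 18.5, 27.6, 13.6 and 12.6 CPM against 10.8, 11.2, 10.7 and 10.8 CPM (-0.77 ± 0.23, adjusted p = 0.0988). Its furan values were alike, its control values spread, and without control animal 3 the log2 fold change was -0.50 with an adjusted p of 0.0416. Snora61 had 2.23, 3.40, 4.01 and 4.09 CPM against 1.63, 2.70, 1.69 and 1.99 CPM (-0.81 ± 0.24, adjusted p = 0.104), and Snora20 had 2.73, 1.92, 3.01 and 1.8 CPM against 3.73, 4.32, 2.87 and 4.00 CPM (0.62 ± 0.23, adjusted p = 0.183). Endothelial markers were lower here too, at 215 to 238 CPM with furan against 274 to 291 CPM, and the hepatocyte marker sum was higher, at 136506 to 142689 CPM against 126574 to 135665 CPM. Their part in the result was not tested.

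In FFPE 3 weeks no member was called by edgeR and none had an unadjusted p below 0.05, where 2.58% of 12983 genes were called and 12.4% had such a p. DESeq2 called 0 as well. Estimates were below 0 for 24 of 31 members with a median of -0.14. The summed levels overlapped, at 1485 ± 187 CPM (SD, n = 4) in controls and 1387 ± 254 CPM (n = 4) with furan. Snora30 had the smallest p, with 33.5, 35.3, 11.9 and 38.3 CPM against 16.6, 23.9, 26.4 and 20.5 CPM (-0.48 ± 0.30, adjusted p = 0.583), and the groups overlapped through control animal 4. The endothelial markers summed to 300.2 to 328 CPM in controls and 261 to 286 CPM with furan. Snora28 (-0.27 ± 0.19), Snora68 (-0.32 ± 0.23) and Snora20 (-0.66 ± 0.49) came next, with adjusted p of 0.655 to 0.689.

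**Figure D5:**
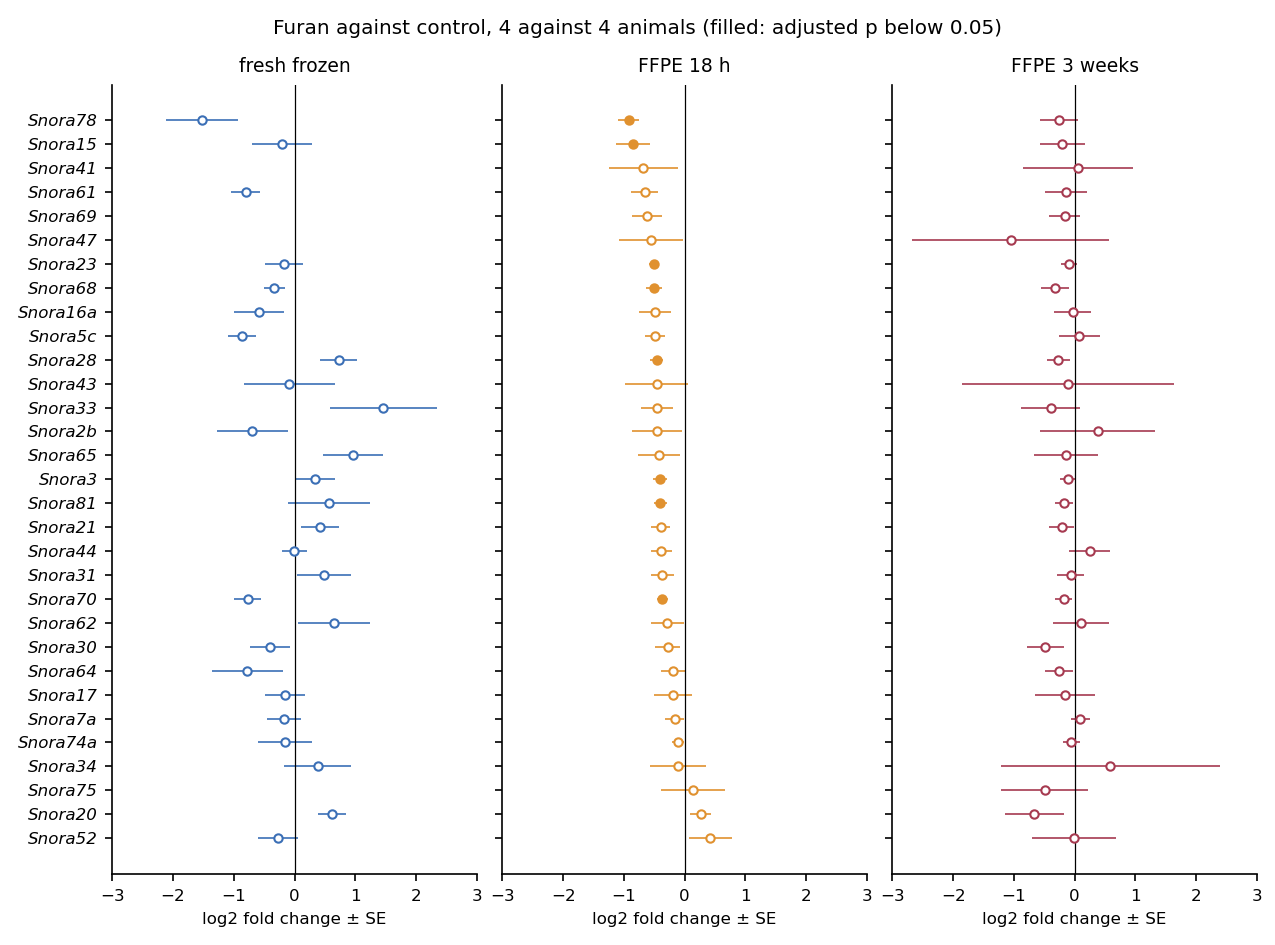
Log2 fold change ± SE of each tested member for furan against control in each preservation, 4 against 4 animals, filled where the edgeR adjusted p is below 0.05. The 8 filled points are all in the FFPE 18 h panel and below 0, and the standard errors are mostly wider in the other panels.

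The furan effect itself did not pass a test of difference between preservations. No member and no gene was called in any of the 3 interaction contrasts by edgeR (0% of 14843, 14253 and 14414 genes), and DESeq2 called 0 members. At an unadjusted p below 0.05 there were 5 members for FFPE 18 h against frozen (1.61% of genes), 4 for FFPE 3 weeks against frozen (4.1%) and 1 between the fixed pieces (5.31%). Snora28 had the smallest p in the first and second: its furan estimate was 0.72 ± 0.31 in frozen, -0.46 ± 0.11 in FFPE 18 h and -0.27 ± 0.19 in FFPE 3 weeks, and the differences from frozen were -1.16 ± 0.27 (adjusted p = 1.0) and -0.98 ± 0.33 (adjusted p = 0.947). The frozen values behind it were 0.889, 0.606, 1.27 and 0.852 CPM in controls and 1.74, 1.14, 1.90 and 1.35 CPM with furan. Between the fixed pieces Snora23 had the smallest p, a difference of 0.41 ± 0.18 (adjusted p = 0.866). Snora3, Snora21 and Snora33 followed Snora28 in the first contrast (-0.72 ± 0.24, -0.80 ± 0.30 and -1.89 ± 0.83), each with an adjusted p of 1.0.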

How the data were processed

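Total RNA of 24 mouse liver libraries was measured. Per the submitters' processing notes, the tools were featureCounts 1.4.4, STAR 2.3.0 and CASAVA 1.8.2 on build mm9, and the authors deposited 1 table of raw counts per gene. Gene models, strand setting and the treatment of multi-mapping reads are not given in the sources used here, and no coordinates are printed because the annotation used (GENCODE M21 and RefSeq, GRCm38) is of another build. The 24 columns were matched to samples by title. Tests used edgeR 4.0.16 under R 4.3.3 (TMM, low-count filter by group, robust quasi-likelihood test, two-sided, Benjamini-Hochberg over all genes tested, adjusted p below 0.05). Treatments were contrasted inside each preservation, preservations as the mean over both treatments, and the furan effect between preservations as an interaction. CPM used library totals. The fits were also run on simulated counts with the same spread for all genes and no animal effect, and no result here rests on that run. Alternatives were DESeq2 1.42.0 (test and size factors), no filter, a fit over all 24 libraries, thinning (seed 1), the animal as replicate block and leaving out each animal. The 3 pieces of a liver carry the same animal number, so the numbers pair the samples by design; deviations of FFPE 18 h and frozen pieces from the same animal correlated at 0.027 to 0.25 over 14901 genes, FFPE 3 weeks and frozen at 0.025 to 0.092 and both fixed pieces at -0.0051 to 0.082, and in 21 of 24 cases a piece correlated best with its own animal. Members and lists were chosen with earlier results of these data known. Of the 25 host genes, 1 is not named here. Named with values were the 8 members with the highest mean CPM, up to 8 with the smallest p among those called for each furan comparison or interaction (otherwise 4, not called), and up to 5 called members per direction without overlap for each preservation contrast by fold change; members outside this rule, such as Snora44 and Snora52, were named after their values were seen.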

Additional observations from a re-analysis of the deposited data

Results flagged for a closer look

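Of 132 groups of 4 values checked, 9 held a value lying far from the other 3 by Dixon's test. Chance flags about 1 in 20 groups. That rate does not hold for the whole-number counts of members detected, where 3 tied libraries flag any other value. The frozen library of control animal 3 gave 3 of them: Snora74a at 4.48 CPM (others 29.1 to 34.0), Snora78 at 31.4 CPM (3.78 to 7.88) and Snora81 at 0.0 CPM (0.991 to 1.07). The FFPE 3 weeks library of furan animal 44 gave 3 more: Snora31 at 60.3 CPM (34.2 to 38.2), Snora69 at 40.6 CPM (24.8 to 25.4) and Snora7a at 97.8 CPM (78.6 to 80.7). Snora75 stood at 0.365 CPM in the frozen library of furan animal 42 (0.158 to 0.18). The frozen library of furan animal 44 held 29 detected members against 31 in the other 3, and the FFPE 18 h library of furan animal 41 held 32 against 31, the additional member being Snora36b with 10 counts.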

How the results depend on the processing

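Of 570 alternative values of the log2 fold changes named by the rule for each comparison, 546 kept their direction and side of the threshold, 17 lost and 7 gained a call, and none changed sign; Snora47 and Snora78, outside the rule in those comparisons, did (-0.42 in FFPE 3 weeks without furan animal 41 and 0.08 in FFPE 18 h without control animal 3). In frozen tissue, 3 members were called with furan in place of 0 with the DESeq2 test and with the fit over all 24 libraries, and leaving out 1 animal gave 0 to 3, the 3 without control animal 3. The share of all genes called in these fits is not given here. In FFPE 18 h, the fit over all 24 libraries called 0 in place of 8; Snora68 lost its call without control animal 2 (adjusted p = 0.0536), Snora3 without furan animal 43 (0.0534) and Snora15 without any animal but 44, by edgeR. Members called higher in FFPE 18 h against frozen numbered 17 after thinning, when 25 members could be tested. The cause of the lower count was not tested. Under TMM effective library sizes the summed frozen level was 122.4 CPM in controls and 94.9 CPM with furan. Members detected per library averaged 27.75 (control) and 29.25 (furan) in frozen tissue at 5 counts or more, 23.0 and 24.75 after thinning, and 29.5 in both FFPE 18 h groups after thinning. With the animal as replicate block, the paired fits called 27, 27 and 26 members for FFPE 18 h against frozen, FFPE 3 weeks against frozen and FFPE 3 weeks against FFPE 18 h, and 0 in each interaction; the block changed no count by over 1.5 times.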
